A study of Homo sapiens with 9 samples.

Results

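Keratins are the filament proteins of epithelial cells, and the 9 genes described here are those that keratinocytes add to their basal set when they leave the basal layer or come under stress: KRT1, KRT10, KRT2, KRT4, KRT13, KRT6A, KRT6B, KRT16 and KRT17. They were taken by symbol from a count table of 21170 features, in which each of the 9 had 1 row. The cells were HaCaT, a spontaneously immortalized line of human keratinocytes. Cells overexpressing a mutant FTO whose demethylase activity is disrupted (mut-FTO), cells overexpressing wild-type FTO (FTO) and cells carrying an empty vector (Vector) gave 3 poly(A) RNA libraries each. The FTO enzyme strips methyl groups off adenosine bases of RNA, and psoriasis-like dermatitis is the disease setting of the study. The labels give no promoter, clone, dose or time for the constructs, and they leave unsaid whether the libraries within a group were separate cultures. P-values therefore measure the spread between these libraries, which may be technical, and a construct cannot be told apart from any other trait of the cells that carried it.

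Depth ranged from 32222203 to 37846027 counts per library. FTO RNA averaged 65.5 ± 16.5 CPM in mut-FTO, 69.8 ± 7.22 CPM in FTO and 20.4 ± 4.75 CPM in Vector (SD, n = 3 each), where CPM is counts per 1000000 of the TMM-scaled library size. It was 3.21-fold higher in mut-FTO than in Vector (edgeR adjusted p = 0.000513) and 3.42-fold higher in FTO than in Vector (adjusted p = 0.00266). It did not tell mut-FTO from FTO (adjusted p = 0.909), and the columns of these 2 groups were matched to their labels by the letters in the column names alone. A pair of libraries stood apart from the rest. Vector replicate 3 had 14.97% of its counts in mitochondrially encoded genes, where the other 8 libraries had 3.805% to 7.446%. In mut-FTO replicate 2, 3.169% of counts, and in Vector replicate 3, 2.498% of counts, were in assembled loci without a gene name, against 0.6887% to 0.8745% elsewhere.

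Keratin filaments are built from pairs of a type II and a type I protein. Basal keratinocytes make KRT5 (type II) with KRT14 (type I). In the suprabasal layers of the epidermis KRT1 pairs with KRT10, and KRT2 joins KRT10 late in differentiation. In the suprabasal layers of moist stratified epithelia such as the oral mucosa and the oesophagus, KRT4 pairs with KRT13. KRT6A and KRT6B, with their type I partners KRT16 and KRT17, are the stress keratins, made at wound edges and in psoriatic plaques, where KRT1 and KRT10 are reduced.

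How far reads can be assigned to these genes depends on their sequences, taken here from the GENCODE v29 transcripts of GRCh38. KRT6A, KRT6B and their near-identical copy KRT6C lie together on chromosome 12, and their coding sequences could be lined up over 1692 bases without a gap. KRT6B differed from KRT6A at 42 of these bases (97.5% identity), KRT6C from KRT6A at 35 (97.9%) and KRT6C from KRT6B at 25 (98.5%). The 90-base window from coding base 656 to 745 is shown because no window of that length held more differences between the copies, and reads over such bases separate the 3 genes. Capitals mark the 10 positions at which the copies differ.
KRT6A: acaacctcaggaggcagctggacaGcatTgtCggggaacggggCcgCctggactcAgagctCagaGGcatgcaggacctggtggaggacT
KRT6B: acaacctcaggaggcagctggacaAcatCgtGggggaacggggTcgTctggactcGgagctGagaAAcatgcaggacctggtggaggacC
KRT6C: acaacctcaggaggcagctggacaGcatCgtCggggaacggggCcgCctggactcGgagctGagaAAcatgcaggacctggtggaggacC

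By contrast, 269 bases in a row (coding bases 148 to 416) were identical in the 3 copies. Of all 100-base windows of the transcript, 18.2% of those of KRT6A, 24.6% of those of KRT6B and 31.7% of those of KRT6C also occurred in a transcript of another gene. KRT16, on chromosome 17, shared 7.18% of its windows, with KRT14 and with its pseudogenes KRT16P2 and KRT16P3. Its longest stretch in common with KRT14 ran over 158 bases, from coding base 316 to 473 of KRT16, and is shown because KRT14 had far higher counts than KRT16 in every library.
KRT16 and KRT14: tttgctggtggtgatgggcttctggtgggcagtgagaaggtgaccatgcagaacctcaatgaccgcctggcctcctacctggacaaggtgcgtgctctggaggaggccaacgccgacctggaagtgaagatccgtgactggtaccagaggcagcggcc

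KRT17 shared 0.322% of its windows with its pseudogene KRT17P3. KRT1, KRT10, KRT2, KRT4 and KRT13 shared 0. How the authors assigned reads that match more than 1 gene is not given in the sources used here, so values of the KRT6 copies and of KRT16 are uncertain to that extent.

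In mut-FTO cells KRT1, KRT4, KRT13 and KRT16 rose relative to Vector, and in FTO cells KRT1, KRT4 and KRT13 rose, by less. KRT6A and KRT17, the most abundant of the 9, stayed within their spread in every comparison. KRT10 and KRT6B lay above the Vector libraries in each library of both constructs without passing edgeR's test, though in mut-FTO against Vector DESeq2 called both and limma-voom called KRT6B, and KRT2 was almost without counts. Of the 9 genes, 8 had enough counts to be tested. Against Vector, 4 rose in mut-FTO, where 7.78% of all 13713 tested genes were called, 3.27% higher and 4.51% lower. Against Vector, 3 rose in FTO, where 0.744% of all genes were called, 0.306% higher and 0.438% lower. Between mut-FTO and FTO, 4 were higher in mut-FTO, where 2.33% of all genes were called, 1.13% higher and 1.2% lower. By DESeq2, 6 rose in mut-FTO against Vector, and by limma-voom 5, and in the other 2 comparisons these tools called as many as edgeR. Of all genes, DESeq2 called 1680, 366 and 751 in mut-FTO against Vector, FTO against Vector and mut-FTO against FTO. In the same order, limma-voom called 1054, 94 and 263 and edgeR 1067, 102 and 319. None of the 8 tested keratins fell by edgeR in any of the 3 comparisons, with 0 lower at an unadjusted p under 0.05 and 0 lower by DESeq2 or limma-voom. Over all 13713 tested genes, 2899 had an unadjusted p under 0.05 in mut-FTO against Vector, 1631 in FTO against Vector and 1918 in mut-FTO against FTO, in either direction. The median log2 fold change of the 8 tested genes was 1.26 in mut-FTO against Vector, 0.65 in FTO against Vector and 0.54 in mut-FTO against FTO, and that of all tested genes was -0.001, -0.002 and -0.005 in the same order. The 3 comparisons share libraries, so their results are not independent of each other.

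**Figure D1:**
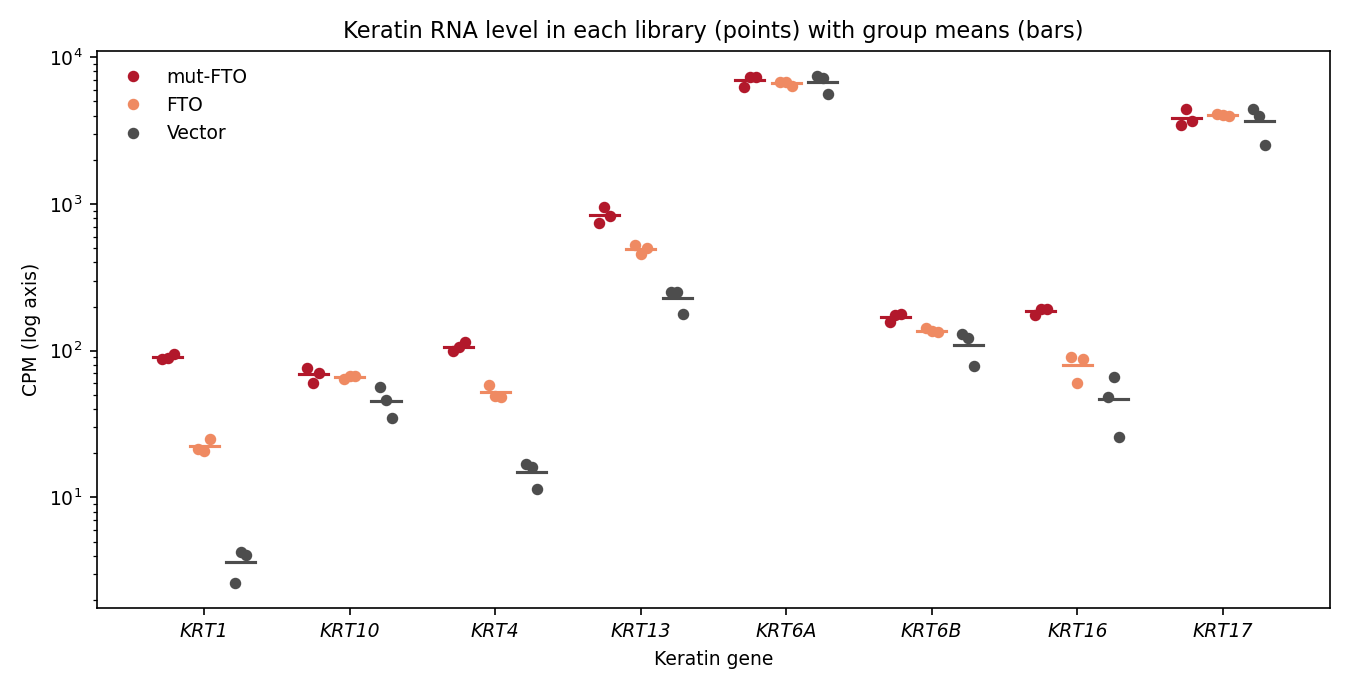
RNA level of the 8 tested keratin genes in CPM (log axis), with 1 point per library and a bar at the mean of the 3 libraries of mut-FTO, FTO and Vector. KRT1 averaged 90.3 CPM in mut-FTO, 22.4 CPM in FTO and 3.63 CPM in Vector, while KRT6A and KRT17 lay at about the same height in the 3 groups.

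KRT1, the type II keratin of the spinous layer, had the largest difference of the 9. It was at 87.2, 88.9 and 94.8 CPM in the mut-FTO libraries, at 21.2, 20.9 and 25.1 CPM in the FTO libraries and at 2.63, 4.22 and 4.03 CPM in the Vector libraries. The 3 groups formed separate steps, with mut-FTO highest and Vector lowest. KRT1 RNA was 24.8-fold higher in mut-FTO than in Vector (log2 fold change 4.64, SE 0.22, edgeR adjusted p = 2.9e-07). It was 6.16-fold higher in FTO than in Vector (2.62, SE 0.20, adjusted p = 0.000102) and 4.03-fold higher in mut-FTO than in FTO (2.01, SE 0.19, adjusted p = 0.000377). These 3 calls held with each library left out in turn. Without the pair of libraries that stand apart the log2 fold changes were 4.70, 2.69 and 2.01.

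KRT10, the type I partner of KRT1, was at 76.6, 59.8 and 70.7 CPM in mut-FTO, at 63.8, 67.3 and 67.2 CPM in FTO and at 56.2, 45.9 and 34.8 CPM in Vector. Each library of both constructs lay above all Vector libraries, while mut-FTO and FTO overlapped. The log2 fold change was 0.60 in mut-FTO against Vector (SE 0.19, 95% interval 0.23 to 0.96, edgeR adjusted p = 0.0735) and 0.53 in FTO against Vector (95% interval 0.17 to 0.90, adjusted p = 0.283). Neither passed edgeR's test over all genes, while DESeq2 called KRT10 in mut-FTO against Vector (adjusted p = 0.0367). Without Vector replicate 3 the adjusted p of mut-FTO against Vector was 0.0499, without Vector replicate 1 it was 0.0237, and without both libraries that stand apart it was 0.0094.

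KRT2, the type II keratin of the upper spinous and granular layers, had 0, 5 and 5 counts in the mut-FTO libraries, 0 in each FTO library, and 0, 5 and 0 counts in the Vector libraries. That was too few to test. The 0 counts among 109737312 in FTO allow a level of up to 0.0273 CPM of the unscaled total, by the limit of 3 counts, which covers counting error only. A difference in KRT2 was not detectable at this depth.

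KRT4, the type II keratin of the mucosal pair, was at 99.2, 106.7 and 114.2 CPM in mut-FTO, at 58.4, 49.0 and 48.6 CPM in FTO and at 17, 16.2 and 11.3 CPM in Vector. Here too the groups did not overlap and stood in the order mut-FTO, FTO, Vector. KRT4 RNA was 7.19-fold higher in mut-FTO than in Vector (log2 fold change 2.85, SE 0.19, edgeR adjusted p = 3.04e-06) and 3.51-fold higher in FTO than in Vector (1.81, SE 0.18, adjusted p = 0.000784). It was 2.05-fold higher in mut-FTO than in FTO (1.04, SE 0.18, adjusted p = 0.0102). This last call was lost without mut-FTO replicate 2 or 3 or FTO replicate 2 or 3, at adjusted p of 0.0564, 0.0673, 0.0771 and 0.0675.

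KRT13, the type I partner of KRT4, had far higher counts. It was at 737.2, 949.7 and 831.9 CPM in mut-FTO, at 527.2, 454.2 and 499.9 CPM in FTO and at 252.2, 251.4 and 178.6 CPM in Vector. The groups again formed 3 separate steps. KRT13 RNA was 3.69-fold higher in mut-FTO than in Vector (log2 fold change 1.88, SE 0.18, edgeR adjusted p = 6.29e-05) and 2.17-fold higher in FTO than in Vector (1.12, SE 0.18, adjusted p = 0.0121). It was 1.70-fold higher in mut-FTO than in FTO (0.77, SE 0.18, adjusted p = 0.0448). The call of FTO against Vector was lost without FTO replicate 1, 2 or 3, at adjusted p of 0.0982, 0.0553 and 0.0864. The call of mut-FTO against FTO was lost without any 1 library of these 2 groups or without Vector replicate 2, at adjusted p between 0.0566 and 0.232.

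**Figure D2:**
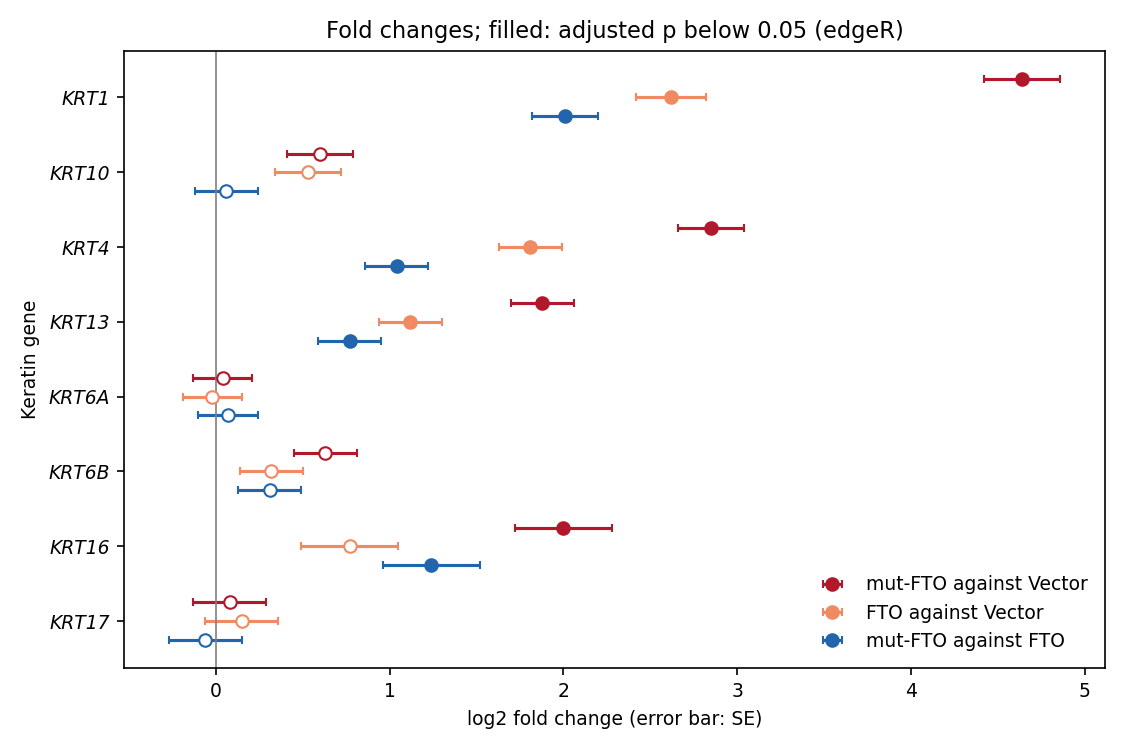
Log2 fold changes of the 8 tested keratin genes, with the SE as error bars, for mut-FTO against Vector, FTO against Vector and mut-FTO against FTO. Filled points passed an edgeR adjusted p below 0.05; KRT1 was farthest to the right at 4.64, and the 3 points of KRT6A and of KRT17 lay near 0.

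KRT16, the type I stress keratin, was at 175.7, 193.3 and 192.2 CPM in mut-FTO, at 90.5, 60.0 and 87.8 CPM in FTO and at 48.0, 66.1 and 26.0 CPM in Vector. The mut-FTO libraries stood above all others, and the FTO and Vector libraries overlapped. KRT16 RNA was 4.01-fold higher in mut-FTO than in Vector (log2 fold change 2.0, SE 0.28, edgeR adjusted p = 0.000895), and the log2 fold change was 1.66 without the pair of libraries that stand apart. It was 2.36-fold higher in mut-FTO than in FTO (1.24, SE 0.28, adjusted p = 0.0404), a call that was lost without any 1 library of these 2 groups, at adjusted p between 0.0885 and 0.201. The log2 fold change of FTO against Vector was 0.77 (SE 0.28, adjusted p = 0.299). KRT14, with which KRT16 shares sequence, was also 1.88-fold higher in mut-FTO than in Vector, and its part in the KRT16 counts was not tested.

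KRT17, the other type I stress keratin, was at 3458, 4468 and 3680.5 CPM in mut-FTO, at 4091, 4035 and 3996 CPM in FTO and at 4434, 4003 and 2515 CPM in Vector. The 3 groups overlapped, and the lowest value was that of Vector replicate 3. The log2 fold change was 0.08 in mut-FTO against Vector (95% interval -0.33 to 0.50, edgeR adjusted p = 0.863) and 0.15 in FTO against Vector (adjusted p = 0.822). Its sign turned without Vector replicate 3, to -0.13 in mut-FTO and -0.09 in FTO. Without both libraries that stand apart the log2 fold change was -0.27 in mut-FTO against Vector (edgeR adjusted p = 0.0828) and -0.08 in FTO against Vector.

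KRT6A, a type II stress keratin, was the most abundant of the 9 genes. It was at 6233, 7351 and 7287 CPM in mut-FTO, at 6806, 6769.99 and 6351 CPM in FTO and at 7445, 7169 and 5646 CPM in Vector. The groups overlapped throughout. The log2 fold change was 0.04 in mut-FTO against Vector (95% interval -0.29 to 0.38, edgeR adjusted p = 0.919) and -0.02 in FTO against Vector (95% interval -0.36 to 0.31, adjusted p = 0.973). With library size alone as the scaling, the value in mut-FTO against Vector was -0.04.

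KRT6B was at 156.9, 175.8 and 178.4 CPM in mut-FTO, at 142.7, 135.8 and 133.1 CPM in FTO and at 129.0, 122.8 and 78.5 CPM in Vector. The 3 groups did not overlap, in the same order as KRT1, KRT4 and KRT13, but the steps were small. The log2 fold change was 0.63 in mut-FTO against Vector (SE 0.18, 95% interval 0.27 to 0.99, edgeR adjusted p = 0.0584), 0.32 in FTO against Vector (adjusted p = 0.52) and 0.31 in mut-FTO against FTO (adjusted p = 0.494). With all 9 libraries, DESeq2 and limma-voom called KRT6B in mut-FTO against Vector (adjusted p = 0.0248 and 0.0495). By edgeR the adjusted p was 0.0334 without Vector replicate 1 and 0.0173 without Vector replicate 3. The copy KRT6C was at 141.5, 167.2 and 174.8 CPM in mut-FTO, at 140.4, 148.1 and 146.6 CPM in FTO and at 173.4, 178.96 and 47.7 CPM in Vector, the last being Vector replicate 3. With KRT6A, KRT6B and KRT6C summed into 1 feature, giving a read to 1 copy or to another does not change the value. Reads left out, counted more than once or shared with KRT5 could still move it. The log2 fold change of that sum was 0.06 in mut-FTO against Vector (edgeR adjusted p = 0.885). KRT6B counts were 1.39% to 2.52% of KRT6A counts, so the sum follows KRT6A and cannot test KRT6B.

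In mut-FTO against Vector, 6 of the 8 tested genes had libraries that did not overlap, all with mut-FTO higher, where 24% of all tested genes did not overlap, 12.2% with mut-FTO higher and 11.8% with it lower. In FTO against Vector it was 5, all with FTO higher, where 21% of all genes did not overlap, 10.1% with FTO higher and 10.9% with it lower. In mut-FTO against FTO it was 5, all with mut-FTO higher, where 29% did not overlap, 14.2% with mut-FTO higher and 14.8% with it lower.

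Divided by the length of the longest coding transcript, levels could be ordered between genes. In mut-FTO, KRT6A led with 3010 CPM per kilobase, followed by KRT17 with 2340 and KRT13 with 494, and the libraries of KRT6A and KRT17 overlapped. KRT16 came next with 114 CPM per kilobase and KRT6B with 74.7. KRT4 with 41.4, KRT1 with 36.8 and KRT10 with 32.5 CPM per kilobase followed, each overlapping its neighbour. In FTO the order was KRT6A with 2880 CPM per kilobase, KRT17 with 2450, KRT13 with 291, KRT6B with 60.1, KRT16 with 48.3, KRT10 with 31.1, KRT4 with 20.2 and KRT1 with 9.14, with no neighbours overlapping. In Vector the first 3 were the same, with KRT13 at 134 CPM per kilobase. KRT6B with 48.2, KRT16 with 28.4 and KRT10 with 21.5 CPM per kilobase overlapped their neighbours there, KRT4 had 5.76 and KRT1 was at 1.48. KRT1 thus stood below its partner KRT10 per kilobase in FTO and Vector, and its libraries overlapped those of KRT10 in mut-FTO.

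**Figure D3:**
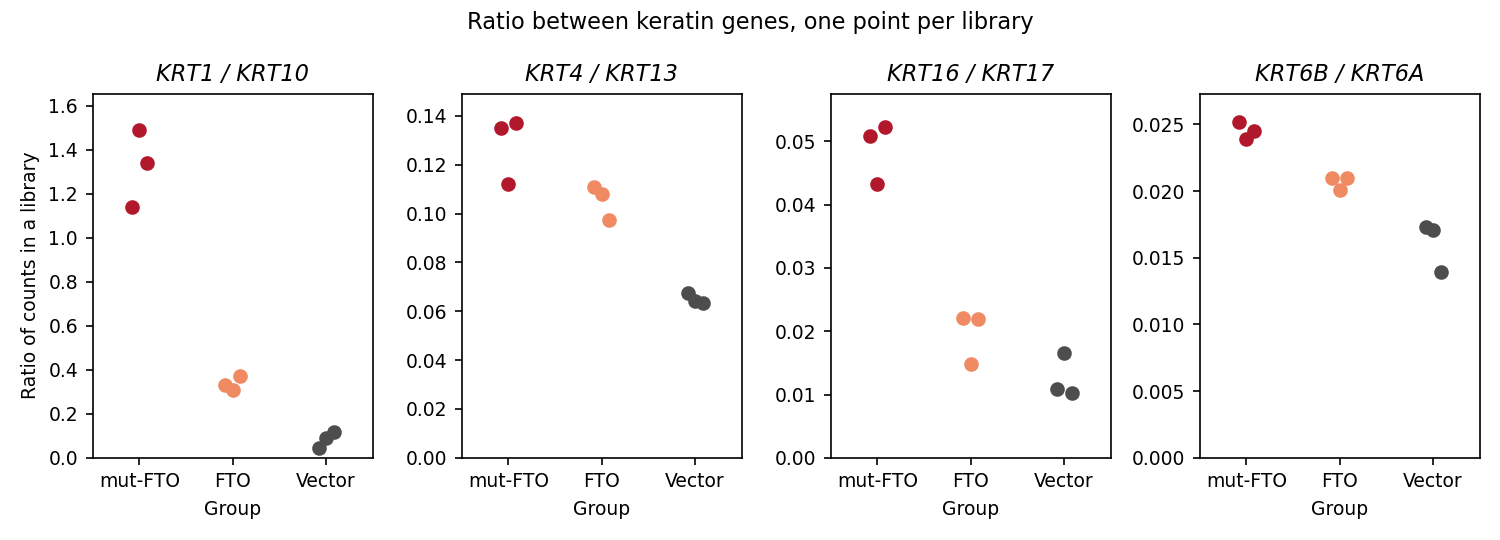
Ratio of the counts of 2 keratin genes within each library, not adjusted for length, for KRT1 to KRT10, KRT4 to KRT13, KRT16 to KRT17 and KRT6B to KRT6A, with 1 point per library. In each panel the mut-FTO points were the highest; KRT1 to KRT10 was 1.14 to 1.49 in mut-FTO, 0.31 to 0.373 in FTO and 0.0468 to 0.116 in Vector.

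Ratios within a library do not depend on how libraries are scaled, and are given as values without a test. The ratio of KRT1 to KRT10 counts was 1.14 to 1.49 in mut-FTO, 0.31 to 0.373 in FTO and 0.0468 to 0.116 in Vector. The ratio of KRT4 to KRT13 was 0.112 to 0.137 in mut-FTO, 0.0972 to 0.111 in FTO and 0.0635 to 0.0673 in Vector. In both pairs the type II member was thus higher relative to its type I partner in every mut-FTO library than in any Vector library. Among the type I stress keratins, the ratio of KRT16 to KRT17 was 0.0433 to 0.0522 in mut-FTO, 0.0149 to 0.0221 in FTO and 0.0103 to 0.0165 in Vector, so the FTO and Vector ranges overlapped. The ratio of KRT6B to KRT6A was 0.0239 to 0.0252 in mut-FTO, 0.0201 to 0.021 in FTO and 0.0139 to 0.0173 in Vector, without overlap. The ratio of KRT6A to KRT16 was 35.5 to 38 in mut-FTO, 72.4 to 113 in FTO and 108 to 217 in Vector.

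**Figure D4:**
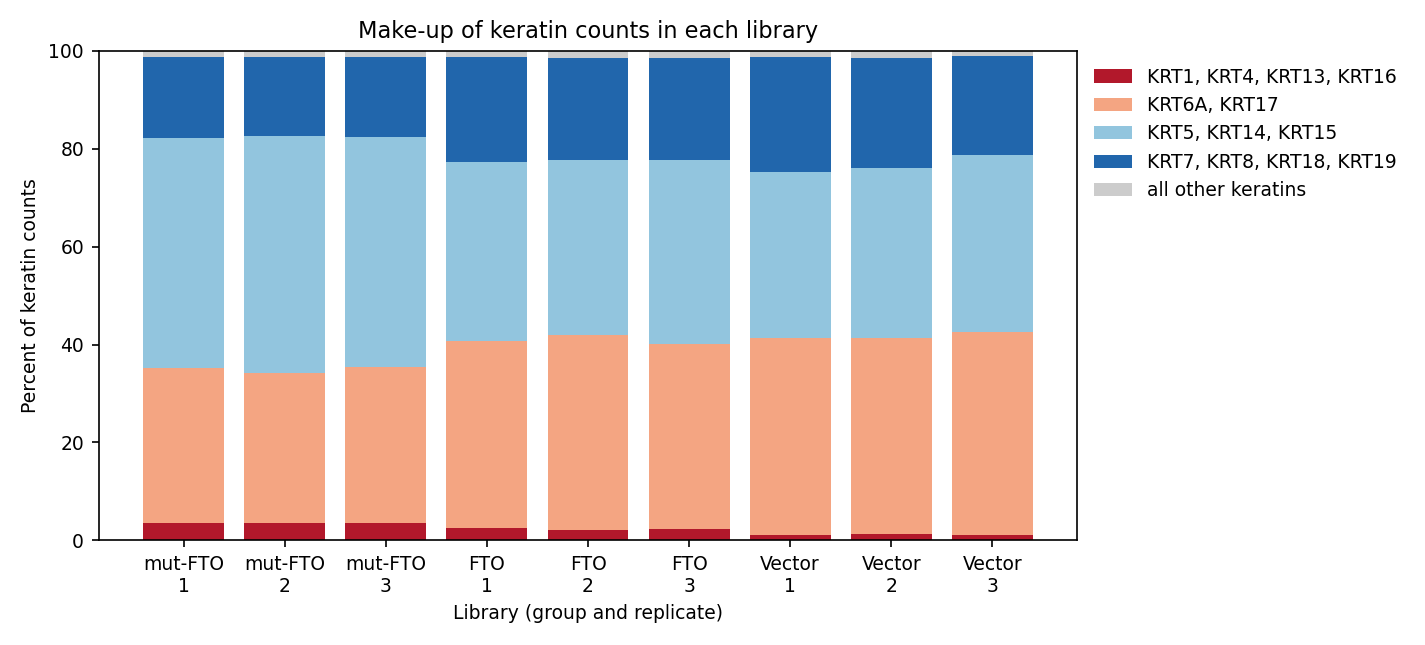
Share of all keratin counts, in percent, taken by sets of keratin genes in each library, stacked to 100. KRT1, KRT4, KRT13 and KRT16 together took 3.48% to 3.58% in mut-FTO, 2.15% to 2.44% in FTO and 1.08% to 1.22% in Vector. These 4 were grouped because they rose in mut-FTO in these same libraries.

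The table held 55 keratin genes, of which 25 were tested and 15 had no count in any library. All keratin genes together took 3.12% to 3.51% of the counts in mut-FTO, 2.75% to 2.84% in FTO and 1.99% to 2.99% in Vector, with Vector replicate 3 the lowest. The shares of keratin counts that follow have Wilson 95% intervals of at most 0.116 percentage points to each side, which cover counting error only. Within the keratin counts, the 4 genes KRT1, KRT4, KRT13 and KRT16 took 3.58%, 3.48% and 3.57% in mut-FTO, 2.44%, 2.15% and 2.41% in FTO, and 1.08%, 1.22% and 1.12% in Vector. KRT6A and KRT17 together took 31.6%, 30.7% and 31.8% in mut-FTO, 38.2%, 39.7% and 37.6% in FTO, and 40.2%, 40.2% and 41.5% in Vector. The basal keratins KRT5, KRT14 and KRT15 took 46.9% to 48.5% in mut-FTO, 35.8% to 37.7% in FTO and 34.0% to 36.0% in Vector. The simple-epithelial keratins KRT7, KRT8, KRT18 and KRT19 took 16.1% to 16.7% in mut-FTO, 20.8% to 21.3% in FTO and 20.4% to 23.4% in Vector. The 4 genes that rose in mut-FTO thus remained a small part of the keratin RNA, most of which was basal and stress keratin in every library.

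Among the 46 other keratin genes, 17 were tested. By edgeR, 4 rose in mut-FTO against Vector (KRT15, KRT14, KRT3 and KRT5) and 0 fell, with 4 lower at an unadjusted p under 0.05, 2 lower by DESeq2 and 0 lower by limma-voom. In that comparison edgeR called 3.27% of all tested genes higher and 4.51% lower. KRT15, a type I keratin of basal cells, averaged 2060 ± 289 CPM in mut-FTO, 1120 ± 77.8 CPM in FTO and 833 ± 157 CPM in Vector. It was 2.48-fold higher in mut-FTO than in Vector (adjusted p = 0.000911). KRT14 averaged 9210 ± 1060 CPM in mut-FTO, 5710 ± 383 CPM in FTO and 4890 ± 854 CPM in Vector (1.88-fold in mut-FTO against Vector, adjusted p = 0.00876), a call lost without mut-FTO replicate 2 (adjusted p = 0.0512). KRT5 averaged 5140 ± 802 CPM in mut-FTO, 3380 ± 140 CPM in FTO and 3200 ± 607 CPM in Vector (1.61-fold in mut-FTO against Vector, adjusted p = 0.0468). The call of KRT5 was lost without any of 7 single libraries, at adjusted p of up to 0.173. KRT3, a type II keratin of the cornea, was at 0.405, 4.24 and 1.91 CPM in mut-FTO, 0.133, 0.322 and 0.114 CPM in FTO and 0.175, 0.168 and 0 CPM in Vector, and its call rested on few counts. That call was lost without mut-FTO replicate 2 (adjusted p = 0.123), without mut-FTO replicate 3 (adjusted p = 0.052) and without both libraries that stand apart (adjusted p = 0.0614). The median log2 fold change of the 17 was 0.27 in mut-FTO against Vector. Without Vector replicate 3, 4 rose and 5 fell among 21 tested and the median was -0.23, without mut-FTO replicate 2, 1 rose and 0 fell, and without both, 3 rose and 5 fell. Of all genes, these fits called 2089, 651 and 2401 in place of 1067. EdgeR called 0 of the 17 in FTO against Vector, with 2 higher and 0 lower at an unadjusted p under 0.05 and 0 by DESeq2 or limma-voom.

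Other genes of suprabasal differentiation, such as cornified envelope proteins and the enzymes that join them, were listed with 30 symbols, of which 20 were tested. In mut-FTO against Vector 6 rose (SBSN, ALOX12B, TGM1, CASP14, LCE3D and CSTA) and 0 fell by edgeR, with 9 higher and 0 lower at an unadjusted p under 0.05 and 0 lower by DESeq2 or limma-voom. In that comparison edgeR called 3.27% of all tested genes higher and 4.51% lower. The median log2 fold change of the list was 0.94. SBSN, suprabasin, averaged 4.49 ± 1.11 CPM in mut-FTO, 1.52 ± 0.476 CPM in FTO and 0.513 ± 0.178 CPM in Vector (8.70-fold in mut-FTO against Vector, adjusted p = 0.000324). ALOX12B, a lipoxygenase of the skin barrier, averaged 5.36 ± 1.39 CPM in mut-FTO, 1.21 ± 0.401 CPM in FTO and 0.60 ± 0.255 CPM in Vector (8.90-fold, adjusted p = 0.000385). TGM1, the transglutaminase that cross-links the cornified envelope, averaged 252 ± 34.1 CPM in mut-FTO, 127 ± 8.93 CPM in FTO and 122 ± 28.2 CPM in Vector (2.07-fold, adjusted p = 0.00367). These 3 calls held with each library left out in turn. With single libraries left out, 4 to 8 of the 20 or 21 tested rose and 0 fell, where 609 to 2089 of all genes were called. Without the pair of libraries that stand apart, 8 rose and 1 fell. Of all genes, the fit without that pair called 2401 in place of 1067. CSTA, cystatin A, whose 1.70-fold rise had an adjusted p of 0.0473, lost its call without any of 8 single libraries, at adjusted p of up to 0.179.

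In FTO against Vector edgeR called 0 of these 20 genes, with 4 higher and 0 lower at an unadjusted p under 0.05, 1 higher by DESeq2 and 0 by limma-voom, and the median log2 fold change was 0.30. Without the pair of libraries that stand apart, 3 of the 20 rose in FTO, where 1050 of all genes were called in place of 102. In mut-FTO against FTO 3 rose (ALOX12B, TGM1 and SBSN), and the median was 0.89. In that comparison 1.13% of all tested genes were called higher and 1.2% lower. The call of SBSN was lost without any of 7 single libraries, that of TGM1 without any of 5 and that of ALOX12B without any of 3. The count was 0 without mut-FTO replicate 3, FTO replicate 1 or FTO replicate 2, 1 without mut-FTO replicate 2 or FTO replicate 3, and 8 without Vector replicate 3. Of all genes, the fit without Vector replicate 3 called 1427 in place of 319.

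Of 39 transcription factors and Notch receptors known to act on keratin genes or on epidermal differentiation, 37 were tested. In mut-FTO against Vector 5 rose and 1 fell. In that comparison 3.27% of all tested genes were called higher and 4.51% lower. GRHL3, a Grainyhead-like factor of barrier formation, averaged 8.10 ± 0.77 CPM in mut-FTO, 4.79 ± 0.888 CPM in FTO and 3.05 ± 0.57 CPM in Vector (2.65-fold in mut-FTO against Vector, edgeR adjusted p = 0.00304). SOX9, a factor of the hair follicle's outer root sheath and stem cells, averaged 21.5 ± 1.47 CPM in mut-FTO, 38 ± 3.97 CPM in FTO and 49.1 ± 17 CPM in Vector, and fell in mut-FTO against Vector (log2 fold change -1.19, adjusted p = 0.00559). NOTCH3, OVOL2 and GRHL1, named here after their values were seen, were also among those that rose. EdgeR called 0 of the 37 in FTO against Vector, with 2 higher and 5 lower at an unadjusted p under 0.05, 1 lower by DESeq2 and 0 by limma-voom. The lowest p there was that of NOTCH2, a Notch receptor, which averaged 17 ± 2.36 CPM in FTO and 30.6 ± 8.3 CPM in Vector (adjusted p = 0.126). Over the 37, the median log2 fold change was 0.18 in mut-FTO against Vector and -0.03 in FTO against Vector. In mut-FTO against Vector, 3 rose and 1 fell without mut-FTO replicate 3, and 11 rose and 3 fell without Vector replicate 3. Of all genes, these fits called 609 and 2089. Without the pair of libraries that stand apart, 12 rose and 5 fell in mut-FTO against Vector, and 1 rose and 4 fell in FTO against Vector. Of all genes, that fit called 2401 in place of 1067 and 1050 in place of 102, in the same order.

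Proteins that anchor keratin filaments, such as desmosomal cadherins, plakophilins and plakins, had no member past the test. All 18 listed were tested and edgeR called 0 in each comparison. At an unadjusted p under 0.05, 0 were higher and 2 lower in mut-FTO against Vector and 0 higher and 1 lower in FTO against Vector and 3 higher and 0 lower in mut-FTO against FTO. DESeq2 called 1 lower in mut-FTO against Vector and 2 higher in mut-FTO against FTO, and limma-voom called 0. DSG2, a desmosomal cadherin, had the lowest p in mut-FTO against Vector, with 127 ± 28.0 CPM in mut-FTO, 157 ± 3.74 CPM in FTO and 209 ± 59.5 CPM in Vector (adjusted p = 0.0596). Without the pair of libraries that stand apart, 2 rose and 1 fell in mut-FTO against Vector, where 2401 of all genes were called in place of 1067.

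The stress keratins are usually read together with genes of wounding and psoriasis, of which 24 of 25 listed were tested. In mut-FTO against Vector 7 rose and 3 fell, and in FTO against Vector 2 rose and 1 fell. The shares of all tested genes were 3.27% higher and 4.51% lower in the former and 0.306% and 0.438% in the latter. With single libraries left out, 4 to 7 of the 24 rose in mut-FTO against Vector, with 4 without mut-FTO replicate 1 or Vector replicate 2. In FTO against Vector 0 rose and 0 fell without any 1 FTO library, 0 rose without mut-FTO replicate 3 or Vector replicate 2, and 6 rose without Vector replicate 3. Of all genes, 102 were called there with all libraries and 476 without Vector replicate 3. SPRR2A, a small proline-rich envelope protein, averaged 65.1 ± 1.46 CPM in mut-FTO, 19.8 ± 1.94 CPM in FTO and 10.3 ± 2.02 CPM in Vector. It was 6.29-fold higher in mut-FTO than in Vector (edgeR adjusted p = 5.43e-06) and 1.91-fold higher in FTO than in Vector (adjusted p = 0.0349), a call that was lost without any of 7 single libraries, at adjusted p of up to 0.228. SPRR2 genes are near-identical copies, so their values are uncertain. IL1B, encoding interleukin 1 beta, moved the other way. It averaged 46.9 ± 4.58 CPM in mut-FTO, 216 ± 23.0 CPM in FTO and 409 ± 33.5 CPM in Vector, with log2 fold changes of -3.13 in mut-FTO against Vector (adjusted p = 4.79e-07) and -0.92 in FTO against Vector (adjusted p = 0.015). The FTO call was lost without FTO replicate 1, 2 or 3, at adjusted p of up to 0.147. IL1A, encoding interleukin 1 alpha, averaged 30.1 ± 7.63 CPM in mut-FTO, 136 ± 17.5 CPM in FTO and 250 ± 116 CPM in Vector (log2 fold change -3.06 in mut-FTO against Vector, adjusted p = 7.05e-05). Over the 24, the median log2 fold change was 0.24 in mut-FTO against Vector and 0.19 in FTO against Vector. Among the stress keratins themselves, KRT16 rose with SPRR2A in mut-FTO while KRT6A and KRT17 did not pass the test.

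Of 15 proliferation genes, which are lower in cells that have left the basal layer, 0 rose and 2 fell in mut-FTO against Vector by edgeR. In that comparison 3.27% of all tested genes were called higher and 4.51% lower. At an unadjusted p under 0.05, 0 of the 15 were higher, and 0 were higher by DESeq2 or limma-voom. RRM2, a subunit of ribonucleotide reductase, averaged 9.96 ± 1.13 CPM in mut-FTO, 15.7 ± 1.60 CPM in FTO and 21.8 ± 0.613 CPM in Vector (log2 fold change -1.13 in mut-FTO against Vector, adjusted p = 0.00151). CCNA2, cyclin A2, averaged 14.6 ± 3.13 CPM in mut-FTO, 24.3 ± 1.08 CPM in FTO and 26.6 ± 4.7 CPM in Vector (-0.86, adjusted p = 0.0194), a call lost without mut-FTO replicate 2 or 3 (adjusted p = 0.083 and 0.102). Over the 15, the median log2 fold change was -0.32. Without Vector replicate 3, 7 of the 15 fell, where 2089 of all genes were called in place of 1067. Without mut-FTO replicate 2 or 3, 1 of the 15 fell, where 651 and 609 of all genes were called.

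Across the 9 libraries, likeness of pattern was measured as the mean absolute difference of centred log2 CPM. The 12061 tested genes with a mean of at least 1 CPM were searched, and unnamed loci among them were left out of the ranks. The genes nearest to KRT1 were SPRR2E, a small proline-rich envelope protein (0.415), WFDC12, a whey acidic protein-type protease inhibitor (0.446), and DLX5, a homeobox factor (0.465). SPRR2E averaged 87.8 ± 5.02 CPM in mut-FTO, 23.1 ± 2.42 CPM in FTO and 6.96 ± 1.55 CPM in Vector. Among the keratins described, KRT4 ranked 17 in likeness to KRT1 (0.658), KRT16 ranked 59, KRT13 ranked 60 and its partner KRT10 ranked 688. The genes nearest to KRT6A were PTBP1, an RNA-binding protein (0.0287), BET1L, a vesicle SNARE (0.0381), and MYO1C, a class I myosin (0.0396), and KRT17 ranked 941. Such ranks describe these libraries and carry no test.

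The cells kept keratinocyte markers in every library, with all 8 detected at a summed level of 18900 to 24700 CPM in mut-FTO, 15300 to 15800 CPM in FTO and 13100 to 16300 CPM in Vector. Among these 8, KRT14 and KRT5 rose in mut-FTO against Vector by edgeR, and 0 fell. In that comparison 3.27% of all tested genes were called higher and 4.51% lower. TP63 and COL17A1 were lower in every mut-FTO library than in any Vector library, without a call. Their log2 fold changes were -0.5 and -0.42 (edgeR adjusted p = 0.174 and 0.184). The median log2 fold change of the 8 was 0.03, so the higher sum in mut-FTO does not stand for the whole list. Markers of other cells were low. The 10 leukocyte markers summed to 25.5 to 30.9 CPM in mut-FTO, 16 to 17.7 CPM in FTO and 11.6 to 16.1 CPM in Vector, with CD3D, MS4A1 and TYROBP among those at 0. Most of that sum was CD14, a co-receptor for bacterial lipopolysaccharide, with 27.6 ± 3.03 CPM in mut-FTO, 16.2 ± 1.10 CPM in FTO and 13.7 ± 2.73 CPM in Vector, which rose in mut-FTO against Vector (edgeR adjusted p = 0.006). KRT1, KRT4, KRT13 and KRT16 rose in that comparison too, and the part of CD14 in their values was not tested. In FTO against Vector the CD14 libraries overlapped (log2 fold change 0.24, adjusted p = 0.658). In mut-FTO against FTO it was not called (adjusted p = 0.059). The 8 fibroblast markers summed to 9.73 to 10.8 CPM in mut-FTO, 5.68 to 8.07 CPM in FTO and 9.15 to 10 CPM in Vector, with DPT at 0. DCN, the matrix proteoglycan decorin, was the 1 of them that passed the test, at 3.14, 1.56 and 1.76 CPM in mut-FTO, 0.425, 0.724 and 1.20 CPM in FTO and 0, 0.112 and 0 CPM in Vector. It was higher in mut-FTO than in Vector (edgeR adjusted p = 0.0013) and in FTO than in Vector (adjusted p = 0.048, lost without any of 7 single libraries). Its libraries stood in the same order of groups as those of KRT1, KRT4 and KRT13, and its part in their values was not tested. COL1A1, a collagen gene of that list, was lower in each construct library than in any Vector library. It averaged 6.64 CPM in mut-FTO, 4.01 CPM in FTO and 7.93 CPM in Vector (edgeR adjusted p = 0.589 and 0.103 against Vector). DESeq2 called 1 of the 4 tested fibroblast markers higher and 1 lower in FTO against Vector. The median log2 fold change of these 4 was -0.08 in mut-FTO against Vector and 0.35 in FTO against Vector. The 7 melanocyte markers summed to 1.46 to 2.65 CPM in mut-FTO, 1.5 to 2.2 CPM in FTO and 0.935 to 1.49 CPM in Vector, with TYR and DCT at 0. The 6 endothelial markers reached at most 0.378 CPM in mut-FTO, 1.07 CPM in FTO and 1.73 CPM in Vector, with PECAM1 and CLDN5 at 0. In such bulk RNA, more cells that make a keratin and more RNA per cell cannot be told apart.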

How the data were processed

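Raw whole-number counts of reads by gene were deposited for 9 libraries, and per the submitters' processing notes the authors used HISAT2 and StringTie. Neither versions nor the counter, strandedness and gene models behind them were stated (not given in the sources used here). Those notes list the mouse build mm10, although cells and symbols are human, so no coordinates are printed. Columns were matched to groups by their letters and numbers. All value columns were used, and any 2 libraries of a group differed by more than sampling noise. Of the 21170 features, 1441 are assembled loci without a gene name, and these stayed in library sizes.

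The test was that of edgeR 4.0.16 (R 4.3.3). The filter filterByExpr by group (minimum count 10, minimum total 15) left 13713 genes, libraries were scaled by TMM factors, and all 9 entered 1 robust quasi-likelihood model with a term per group. P-values were adjusted by the Benjamini-Hochberg method over all tested genes and called below 0.05. Standard errors came from the log2 fold change and the F statistic, and 95% intervals are 1.96 SE to each side, unadjusted for the number of genes. CPM use TMM-scaled library sizes, and log2 CPM for likeness a prior count of 2. Lengths and sequences came from GENCODE v29, with the longest coding transcript per gene. The test was checked on simulated counts.

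The keratins, the gene lists and the naming rule were chosen with earlier results of these data known. The rule takes, per list, at most the 3 genes of lowest p in mut-FTO against Vector and the 2 of lowest p in FTO against Vector, plus KRT5, KRT14, KRT6C and the 3 nearest patterns to KRT1 and KRT6A. Some genes that it takes are not reported here, and FTO was added as the check of the labels. Alternatives were RLE factors, library size alone, mitochondrial genes and unnamed loci or keratins left out, DESeq2 1.42.0, limma-voom (limma 3.58.1), a mean of 10 or more counts, no filter, fits of only the 6 libraries compared, the replicate number as a block, the KRT6 copies summed, and libraries left out. Counts in the lists without single libraries, or without both that stand apart, were added after the data were seen.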

Additional observations from a re-analysis of the deposited data

How the results depend on the processing

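Over 21 alternatives, 454 of the members' fold changes kept their direction and side of the threshold, 25 lost a call, 10 gained one and 12 turned sign. With single libraries left out, 4 to 6 members were called in mut-FTO against Vector, 2 to 3 in FTO against Vector and 1 to 5 in mut-FTO against FTO. In mut-FTO against FTO, 2 members were called in place of 4 with library size alone and 2 with the replicate number as a block, and the cause was not tested. Of all genes, these fits called 279 and 222 in that comparison, in place of 319. The block left 4 and 3 members called in the comparisons with Vector. Same-numbered libraries did not deviate together (correlations of -0.127 to 0.106), which does not settle whether they shared a culture or day. None of the sign changes came with a call. The turned value farthest from 0 was that of KRT17 in mut-FTO against Vector without both libraries that stand apart (-0.27, edgeR adjusted p = 0.0828). In mut-FTO against Vector, KRT6A was -0.04 with library size alone, -0.14 without both libraries that stand apart and -0.08 (Vector replicate 3) to 0.12 with single libraries left out. KRT17 was -0.27 without both, -0.03 without mut-FTO replicate 2 and -0.13 (Vector replicate 3) to 0.25 with single libraries left out. In FTO against Vector, KRT6A was -0.16 to 0.05 with single libraries left out, positive without Vector replicate 1 or 2 (0.02), and KRT17 was -0.08 without both and -0.09 (Vector replicate 3) to 0.31 with single libraries left out. In mut-FTO against FTO, KRT10 was -0.02 to 0.16 and KRT17 -0.17 to 0.01 with single libraries left out, with the turned signs without mut-FTO replicate 1. The number of all genes called depended more on the fit. In mut-FTO against Vector it was 1067, against 1680 by DESeq2, 621 with only the 6 libraries compared, 2401 without both libraries that stand apart and 609 to 2089 with single libraries left out. In FTO against Vector it was 102, against 366, 41, 1050 and 27 to 476, and 67 with the block. In mut-FTO against FTO it was 319, against 751, 1218, 1196 and 71 to 1427.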
